A study of Oryza sativa with 12 samples.

Results

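The genes described here are the rice cellulose synthase genes (CESA), the cellulose synthase-like genes (CSL) and the COBRA-like genes BC1 and BC1L, measured in panicles under heat. They were picked by a naming rule, which was set with earlier results of these data known. It asked for a symbol or synonym equal to CESA and a number, CSL with a letter A to H and a number, BC1, or BC1L and a number. The rule found 41 rice genes, of which 34 were among the 17905 genes with a probe set of their own in the array annotation used here. CSLA3, CSLA4, CSLE6, CSLF3, CSLF4, CSLF9 and BC1L7 were not among them and are not analysed here. Each gene was represented by its probe set with the highest mean signal over the 12 arrays.

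Panicles of 2 rice lines were compared, the heat tolerant line 252 and the heat sensitive line 082. Plants at high temperature were kept for 5 d at 37 °C by day and 30 °C by night, and plants at optimal temperature at 30 °C by day and 25 °C by night. Each of the 4 groups, line 252 at high temperature, line 082 at high temperature, line 252 at optimal temperature and line 082 at optimal temperature, had 3 biological replicates, hybridised to 1 Affymetrix array each. The labels give no panicle stage, no number of plants per replicate and no pedigree of the lines, and they name no allele or transgene. With 3 arrays a group, the number of arrays limits the precision of every value. Values are the authors' MAS5 signals, a linear brightness per probe set, and are listed below in the order of replicates 1, 2 and 3.

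Cellulose, the load-bearing glucan of plant cell walls, is made at the plasma membrane by complexes of CESA proteins. In rice, CESA4, CESA7 and CESA9 serve the thick secondary wall, and loss of any of them gives a brittle culm, while CESA1, CESA3, CESA5, CESA6 and CESA8 are counted with the primary wall of growing cells. BC1 is a COBRA-like protein whose loss also gives a brittle culm. The CSL families make other wall glycans: CSLA proteins make mannans and CSLC proteins the xyloglucan backbone, as known from Arabidopsis, and CSLF6 and CSLH1 make the mixed-linkage glucan typical of grasses.

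Of the 34 genes, 32 passed a filter that kept probe sets above their array's median signal on at least 3 of the 12 arrays. CSLC3 and CSLF8 did not pass. CSLC3 lay between 5.74 and 45.2 and CSLF8 between 1.42 and 40.3 over the 12 arrays. CESA2, CSLD5, CSLF7 and BC1L2 had all 3 arrays above the median in 1 group alone, so their passing leaned on the group in which they were highest. CSLD1, CSLF2 and LOC4347540 had no such group, and 19 genes were above the median on all 12 arrays. LOC4347540 is the bHLH transcription factor gene bHLH081, which carries BC1 as a synonym. It met the naming rule but belongs to none of the wall families, and its group means were between 36.5 and 56.2 with no change that passed the test.

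Several features of the arrays bear on all that follows. The third array of line 252 at high temperature stood apart: 9 of the 32 genes (28.1%) were more than 2 times as bright there as on both other arrays of the group, on the log2(signal + 16) scale, against 875 of 16541 genes (5.29%). The 9 genes were CESA1, CESA5, CESA6, CSLA1, CSLA7, CSLA9, CSLC2, CSLC9 and CSLF6. On each of the other 11 arrays, 0 to 2 of the 32 genes stood out in this way. The floral organ genes were mixed on that array. MADS7 and MADS8 were bright there, at 8568 and 13006. The other arrays of the group gave 1904 and 3241 for MADS7 and 4067 and 5463 for MADS8. MADS4 and LOC4325001 (MADS2) were also highest on that array, and MADS6 and MADS16 lay between the other arrays. MADS1, MADS14, MADS15 and LOC4343851, a second record named MADS2, were lowest on it. Since the 9 genes stood out on the third array, the change of each in line 252 is also given without that array.

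Marker genes of tissue content also differed between the groups. A list of 10 grain genes (storage proteins, starch synthases and the regulators VP1 and NF-Y4) summed to 184 to 543 in line 252 and 79.9 to 162 in line 082 under heat. The sum at optimal temperature was 374 to 17183 in line 252, where the highest value came from replicate 1, and 170940 to 239206 in line 082. All 10 grain genes were above the array median on all 3 arrays of line 082 at optimal temperature, against 1 of 10 for line 252 at high temperature, 0 of 10 for line 082 at high temperature and 3 of 10 for line 252 at optimal temperature. A list of 6 gene records for dividing cells (B-type cyclins and MCM replication factors) summed to 138 to 394 in line 252 and 99.1 to 302 in line 082 at high temperature, against 10943 to 15210 in line 252 and 6188 to 10376 in line 082 at optimal temperature. Floral organ MADS genes, the defining markers of a panicle, were above the median on every array. Their sums were 81390 to 90853 and 79386 to 84582 at high temperature in lines 252 and 082. At optimal temperature the sums were 39130 to 58902 and 29753 to 47727. The members did not all follow the sums in line 252. MADS4, MADS6, MADS7 and MADS8 averaged 413, 3042, 4571 and 7512 there at high temperature. Their means at optimal temperature were higher, at 1385, 4821, 5514 and 12737. The other records of the list had higher means at high temperature in line 252, as all records had in line 082. A list of 5 tapetum and pollen genes had low sums, of 62.5 to 452 over the 12 arrays, that also differed between the groups. The sums were 62.5 to 132 and 64.9 to 149 at high temperature in lines 252 and 082. At optimal temperature they were 103 to 182 and 186 to 452. EAT1 was above the median on all 3 arrays of line 082 at optimal temperature, and CYP703A3 on all 3 of line 252 at optimal temperature. In whole panicles, fewer cells of a type and less RNA per cell cannot be told apart, and the part of these differences in the wall gene results was not tested.

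Technical readings moved with the groups too. The median signal was 36.5 to 41.9 on the high temperature arrays and 55.1 to 68.4 on the optimal temperature arrays. The 3′ to 5′ signal ratio of the Dap control RNA averaged 12.9 and 12.1 under heat and 1.62 and 1.86 at optimal temperature in lines 252 and 082. For the Gapdh probe sets that ratio averaged 8.05 and 12.8 at high temperature and 7.13 and 1.80 at optimal temperature, and for the actin probe sets 26.0 and 29.6 at high temperature and 31.0 and 5.54 at optimal temperature. The lowest Gapdh and actin ratios were thus in line 082 at optimal temperature, and their part in the results was not tested. The Dap ratio, of a control RNA added to the sample, was 11.2 to 13.2 on the high temperature arrays and 1.58 to 1.98 on the optimal temperature arrays. The labels name no labelling batch, so in every comparison of the temperatures a difference in sample labelling and the effect of heat cannot be told apart.

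More of these genes fell than rose at high temperature in both lines. A gene was called changed when its adjusted p was under 0.05 over 33614 probe sets and the size of its log2 change 1 or more. In line 252, 18 of the 32 genes fell and 1 rose, where 22.0% of all genes tested fell and 11.3% rose. In line 082, 15 fell and 1 rose, where 20.3% of all genes fell and 18.1% rose. The median log2 change of the 32 genes was -1.19 in line 252 and -1.08 in line 082, against -0.15 and 0.02 over all genes. Without the filter, 17 of the 34 genes fell and 1 rose in line 252, and 15 fell and 1 rose in line 082. Without replicate 3 of line 252 at high temperature, 19 of the 32 genes fell and 0 rose in line 252. In the fit of all arrays, 10 genes fell in both lines, 8 passed the test as lower in line 252 and not in line 082, and 5 in line 082 and not in line 252. Over all genes these shares were 11.4%, 9.87% and 8.62%. The highest group mean was in line 082 at optimal temperature for 17 of the 32 genes, in line 252 at optimal temperature for 12 and in line 252 at high temperature for 3. None had its highest mean in line 082 at high temperature. These counts rank means without a test and include bHLH081. No such count was made over all genes, so whether the pattern is particular to this family is not known. The plot of all 32 genes by array shows the bright block of CESA2, CESA4, CESA7, CESA9 and BC1 in line 082 at optimal temperature and the bright replicate 3 of line 252 at high temperature.

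**Figure D1:**
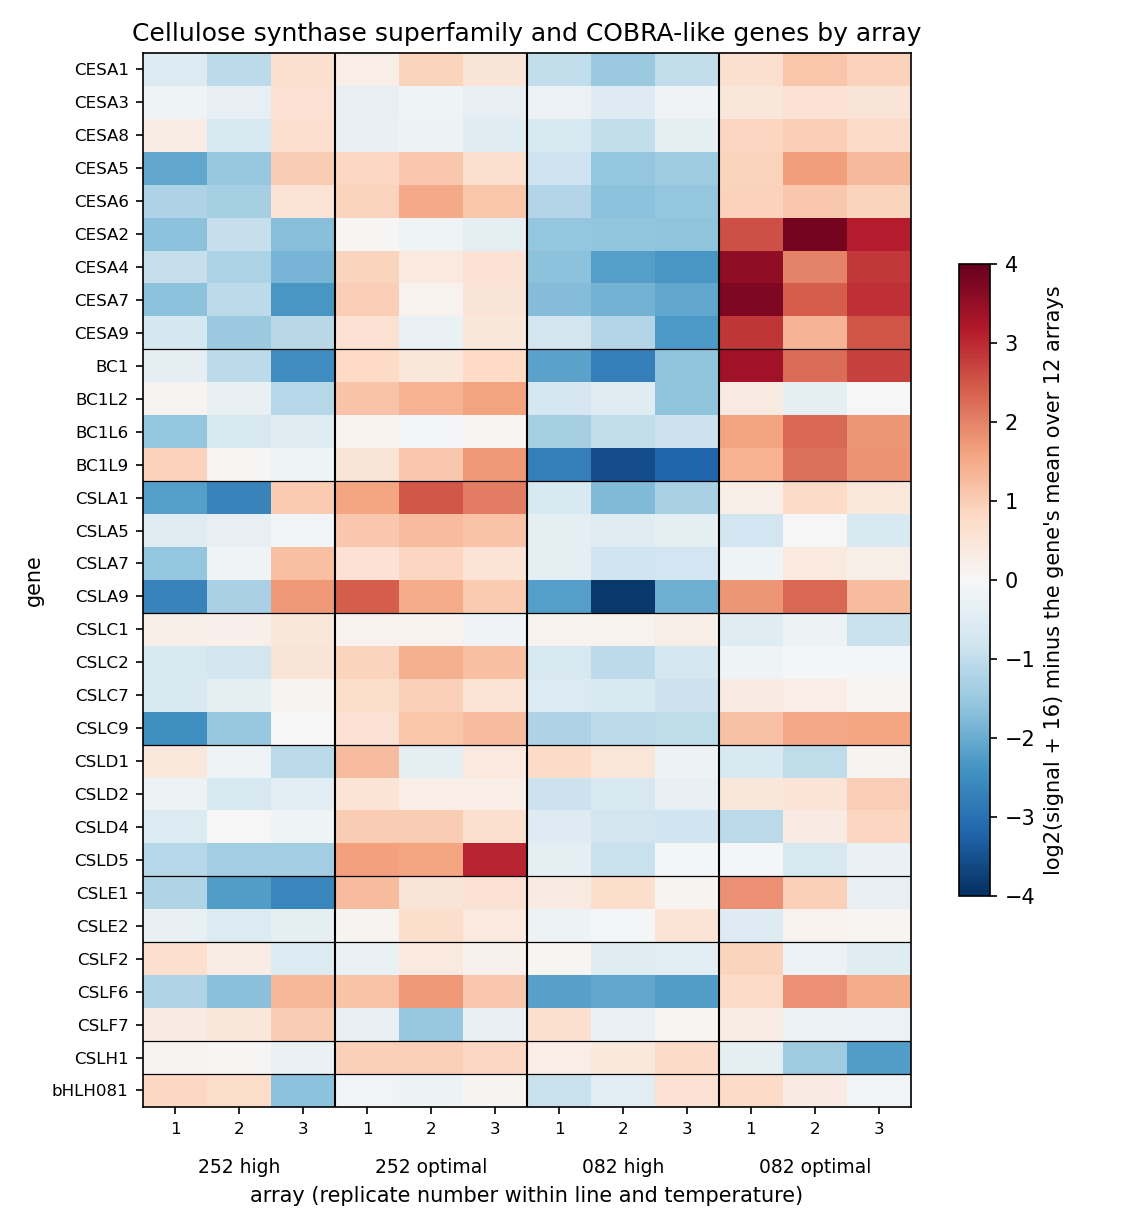
Rows are the 32 genes, grouped by subfamily, and columns are the 12 arrays in 4 groups. Colour gives log2(signal + 16) minus the gene's own mean over the 12 arrays, red for above and blue for below, cut at 4 either way. CESA2, CESA4, CESA7, CESA9 and BC1 are reddest in line 082 at optimal temperature, and 16 genes are brighter on array 3 of line 252 at high temperature than on arrays 1 and 2, 9 of them by more than 2 times.

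The secondary wall genes lost signal at high temperature in both lines. CESA4, CESA7 and CESA9 and the COBRA-like gene BC1 fell in both lines, and fell further in line 082, where their optimal temperature signals were higher. CESA4 had signals of 212, 162 and 103 at high temperature in line 252, against 783, 549 and 634 at optimal temperature. For CESA4, line 082 gave 122, 78.3 and 70.7 in the heat, against 5018, 1679 and 3053 at optimal temperature. The groups did not overlap in either line, and the log2 changes were -1.98 ± 0.36 in line 252 (SE, limma adjusted p = 0.00068) and -4.83 ± 0.36 in line 082 (limma adjusted p = 6.8e-07). The mean signal was 4.12-fold lower at high temperature in line 252 and 36.0-fold lower in line 082.

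CESA7 repeated this pattern. Its signals were 78.7, 128 and 43.6 at high temperature and 577, 316 and 408 at optimal temperature in line 252. For CESA7, line 082 gave 73.1, 64.6 and 54.3 in the heat and 3985, 1590.2 and 2254 at optimal temperature. The log2 changes were -2.23 ± 0.37 in line 252 and -4.94 ± 0.37 in line 082, and again no array of a high temperature group reached an optimal one. CESA9, the other subunit gene, gave 42.3, 17.7 and 28.5 at high temperature in line 252, against 129, 63.8 and 114 at optimal temperature. For CESA9, line 082 gave 41.1, 26.4 and 3.61 in the heat, against 673, 227 and 526 at optimal temperature. At high temperature only replicate 1 of line 252 was above its array's median for CESA9, so its changes of -1.37 ± 0.47 in line 252 and -3.63 ± 0.47 in line 082 depend on the value of 16 added before the log. With 1 added they were -1.78 and -4.63, and with 64 added -0.82 and -2.54, and neither value in line 252 passed. The call for CESA9 in line 252 was lost without that line's high temperature replicate 2 (-1.17, adjusted p = 0.10) or 3 (-1.37, 0.057), or its optimal temperature replicate 1 (-1.20, 0.093) or 3 (-1.28, 0.083).

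BC1 encodes a COBRA-like protein needed for culm strength and cellulose assembly. Its signals were 95.4, 53.3 and 9.41 at high temperature in line 252, against 233, 178 and 233 at optimal temperature. For BC1, line 082 gave 16.7, 5.45 and 31.4 in the heat, against 1458, 659.6 and 948 at optimal temperature. The log2 changes were -1.98 ± 0.49 (limma adjusted p = 0.0050) in line 252 and -4.94 ± 0.49 (limma adjusted p = 5.0e-06) in line 082. With 1 or 64 added before the log, the change of BC1 in line 252 was -2.50 or -1.32. In line 082 the high temperature arrays were under their medians for BC1, and the change there was then -5.97 or -3.675. The difference between the lines was then 3.47 or 2.35. The optimal temperature signals of line 082 were above those of line 252 on every array for CESA4, CESA7, CESA9 and BC1, while at high temperature the ranges of the lines overlapped for all 4 genes. Within line 082 at optimal temperature, all 4 were highest on replicate 1 and lowest on replicate 2.

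**Figure D2:**
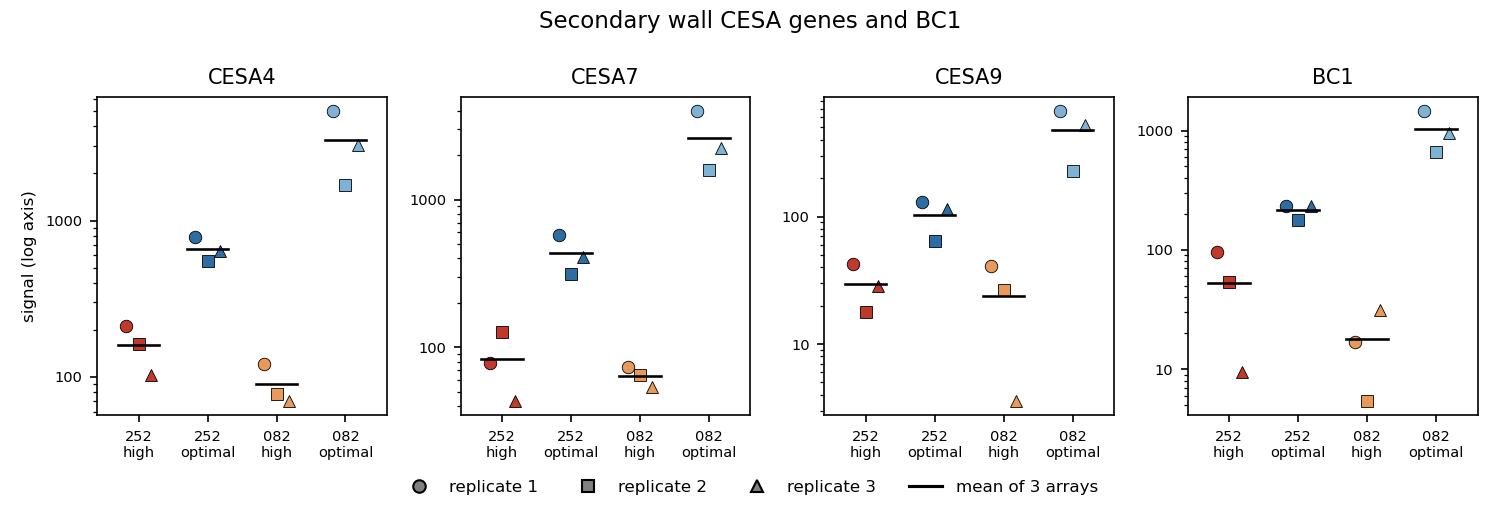
Signal on a log axis for CESA4, CESA7, CESA9 and BC1 in the 4 groups. Points are arrays with a marker for each replicate number, and bars are means of 3 arrays. The high temperature arrays lie below the optimal temperature arrays in each line, and the 3 arrays of line 082 at optimal temperature lie above all others.

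CESA2 was near the bottom of the scale everywhere except in line 082 at optimal temperature. Its signals were 2.45, 14.6 and 1.44 at high temperature in line 252, against 43.2, 34.6 and 28.2 at optimal temperature. For CESA2, line 082 gave 3.78, 3.02 and 2.63 in the heat, against 323, 789.7 and 487 at optimal temperature. The log2 changes were -1.25 ± 0.36 in line 252 and -4.75 ± 0.36 in line 082. All signals outside line 082 at optimal temperature were below their arrays' medians, and the change in line 252 was -2.82 with 1 added before the log and -0.50 with 64 added. With 64 added the change in line 082 was -3.08. The call in line 252 was lost with 64 added, when arrays were centred on the 75th percentile (-0.95) and with array weights (-0.97). A second, dimmer probe set for CESA2 did not show the change, at 0.06 in line 252 and -0.26 in line 082. The 2 probe sets thus disagree, and the CESA2 values describe the brighter of them.

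Among the primary wall genes, CESA5 and CESA6 fell in both lines, CESA1 and CESA8 fell in line 082, and CESA3 did not reach the size threshold in either line. CESA6 had signals of 310.0, 291 and 1104 at high temperature in line 252, against 1432, 2194 and 1654 at optimal temperature. For CESA6, line 082 gave 326, 234 and 249 in the heat, against 1467, 1605 and 1410.2 at optimal temperature. The ranges did not overlap in either line, with log2 changes of -1.86 ± 0.39 in line 252 and -2.41 ± 0.39 in line 082. CESA5 gave 153, 234 and 1413 at high temperature in line 252, against 1250.0, 1498 and 1099 at optimal temperature. For CESA5, line 082 gave 383, 227 and 252 in the heat, against 1312, 2237 and 1757 at optimal temperature. High temperature replicates 1 and 2 of line 252 were low, and replicate 3, the array that stood apart, was inside the optimal range. The change in CESA5 was -1.72 ± 0.58 in line 252 (limma adjusted p = 0.029) and -2.56 ± 0.58 in line 082. Without the third array the change in line 252 was -2.65 for CESA5 and -2.47 for CESA6. The CESA5 call in line 252 was lost without high temperature replicate 1 (-1.11) or 2 (-1.39), or optimal temperature replicate 1 (-1.73), 2 (-1.60) or 3 (-1.82).

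CESA1 fell in line 082. Its signals were 1308, 914 and 2989 at high temperature in line 252, against 2320.1, 3577 and 2779 at optimal temperature. For CESA1, line 082 gave 969, 677 and 965 in the heat, against 3030.2, 4182 and 3680.5 at optimal temperature. The change was -0.89 ± 0.34 in line 252, under the size threshold, and -2.05 ± 0.34 in line 082. It passed in line 252 without the third high temperature array (-1.37) or without optimal temperature replicate 1 (-1.03). CESA8 had signals of 2114, 1084 and 2706 at high temperature in line 252, against 1396, 1478 and 1219 at optimal temperature, and these ranges overlapped. For CESA8, line 082 gave 1122, 859 and 1285 in the heat, against 3128, 3369 and 2881 at optimal temperature, with no overlap. Its log2 change was 0.43 ± 0.27 in line 252 (limma adjusted p = 0.21) and -1.52 ± 0.27 in line 082. CESA3 had signals of 2541, 2238 and 4375 at high temperature in line 252, against 2234, 2497 and 2277 at optimal temperature. For CESA3, line 082 gave 2436, 2002 and 2598 in the heat, against 3912, 4246 and 4099 at optimal temperature. The change was 0.32 ± 0.20 in line 252 and -0.80 ± 0.20 in line 082, the second with an adjusted p of 0.0050 but under the size threshold. Without the third high temperature array the changes in line 252 were 0.15 for CESA8 and 0.03 for CESA3. Over the 9 CESA genes, 6 fell in line 252 and 8 in line 082, none rose in either, and the median log2 changes were -1.37 and -2.56. Of all genes, 22.0% fell in line 252 and 20.3% in line 082.

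**Figure D3:**
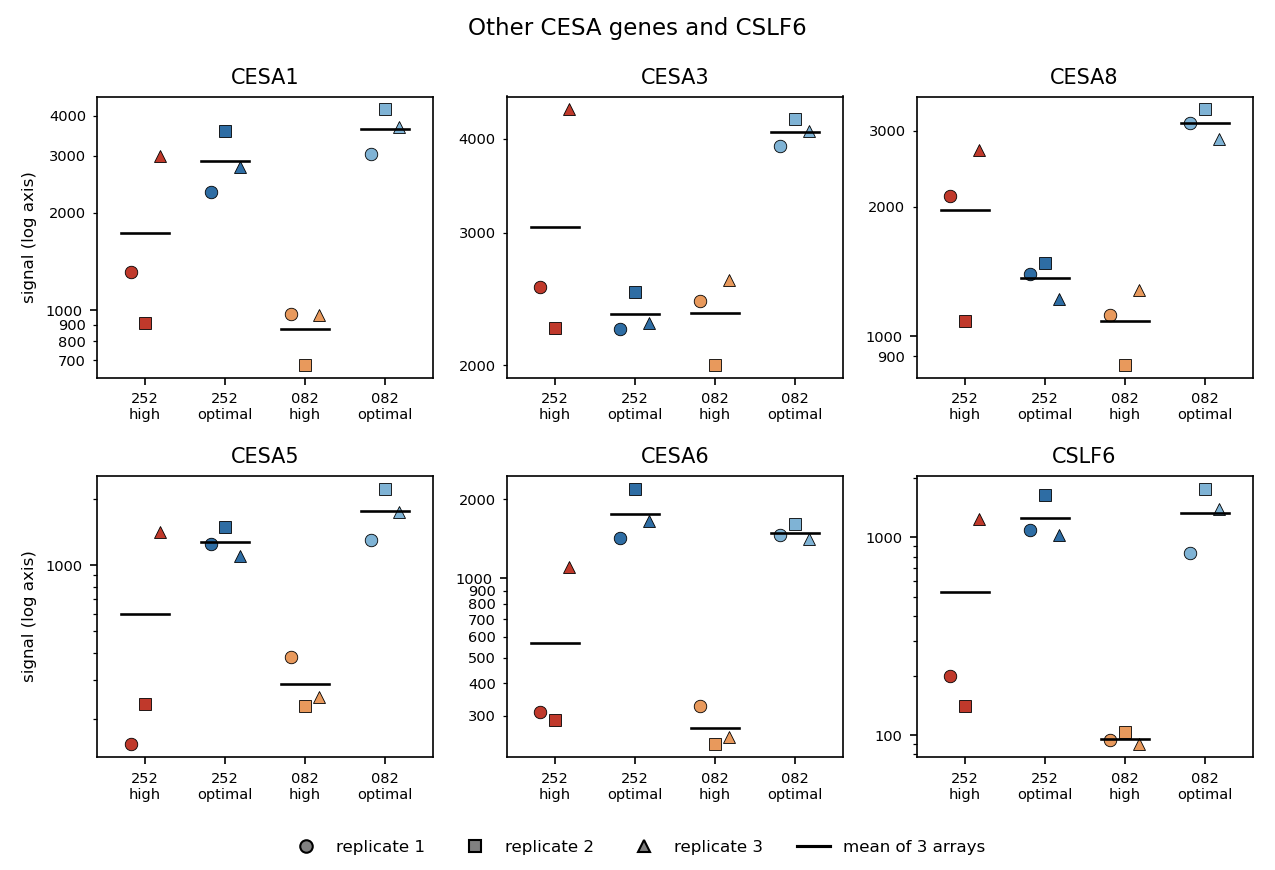
Signal on a log axis for CESA1, CESA3, CESA8, CESA5 and CESA6 and for CSLF6 in the 4 groups. Points are arrays with a marker for each replicate number, and bars are means of 3 arrays. In line 252 at high temperature, replicate 3 lies above replicates 1 and 2 in every panel, and in line 082 the high temperature arrays lie below the optimal temperature arrays in every panel.

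Of the COBRA-like relatives of BC1, BC1L6 and BC1L9 had their 4 group means in the same order as BC1. That order was not particular to them, as CESA1, CESA5, CSLA9, CSLC9, CSLD2 and CSLF6 also had it. BC1L6 and BC1L9 fell in line 082 and did not pass the test in line 252. BC1L2 fell in line 252 and did not pass in line 082. BC1L9 signals were 670.4, 355 and 304 at high temperature in line 252, against 507, 750.4 and 1185 at optimal temperature, and these ranges overlapped. For BC1L9, line 082 gave 38.2, 14.8 and 24.1 in the heat, against 930.5, 1662 and 1236 at optimal temperature. The log2 change was -0.85 ± 0.36 in line 252 (limma adjusted p = 0.072) and -4.95 ± 0.36 in line 082 (limma adjusted p = 6.1e-07). The change in line 252 passed the test without high temperature replicate 1 (-1.18) or optimal temperature replicate 1 (-1.15). In line 082 the high temperature arrays were under their medians for BC1L9. With 1 or 64 added before the log, the change in line 082 was -5.64 or -3.87. The difference between the lines was then 4.76 or 3.09. A second probe set of BC1L9, with a mean signal of 81.7 over the 12 arrays, fell by 1.26 on the log2 scale in line 252 and fell by 3.10 in line 082, passing the test in both.

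BC1L6 also fell more in line 082. Its signals were 67.7, 140.2 and 159.8 at high temperature in line 252, against 253, 218 and 243 at optimal temperature. For BC1L6, line 082 gave 81.1, 107 and 119 in the heat, against 727, 1175 and 811 at optimal temperature. The ranges did not overlap in either line, and the changes were -0.94 ± 0.29 in line 252, just under the size threshold, and -2.94 ± 0.29 in line 082. It passed in line 252 without high temperature replicate 2 (-1.06) or 3 (-1.15). BC1L2, which lies beside BC1 in the rice assembly ASM3414082v1 with no coding gene between them, fell in line 252. Its signals were 46.0, 30.6 and 9.89 at high temperature in line 252, against 111, 135 and 160.0 at optimal temperature. For BC1L2, line 082 gave 19.8, 25.3 and 3.03 in the heat, against 57.9, 27.9 and 40.4 at optimal temperature. BC1L2 fell by 1.83 on the log2 scale in line 252 (SE 0.40), and its change in line 082 was -0.90 ± 0.40 (limma adjusted p = 0.075). BC1L2 was above the array median on all arrays in line 252 at optimal temperature alone, and its changes were -2.42 and -1.67 with 1 added before the log and -1.12 and -0.41 with 64 added. BC1 fell in both lines, and its neighbour BC1L2 passed the test in line 252 alone. The difference between the lines in the BC1L2 heat change did not pass (-0.93 ± 0.57, limma adjusted p = 0.24). In line 082 the BC1L2 arrays of the 2 temperatures did not overlap either, and all were under their array medians.

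Of the 4 CSLA genes that passed the filter, 3 fell in line 252 and 1 in line 082, where 22.0% and 20.3% of all genes fell. CSLA1, whose record also carries the name CSLA9, had signals of 126, 87.3 and 1339 at high temperature in line 252, against 1945, 3673 and 2707 at optimal temperature. For CSLA1, line 082 gave 415, 176 and 250.0 in the heat, against 756, 1097 and 868 at optimal temperature. No ranges overlapped, and the change was -3.32 ± 0.72 in line 252 and -1.70 ± 0.72 in line 082 (limma adjusted p = 0.062). Without the third high temperature array of line 252 it was -4.48 in line 252, and -1.70 in line 082 with an SE of 0.31 and an adjusted p of 0.00057. Without high temperature replicate 2 of line 252 the call in line 082 was also made (adjusted p = 0.039).

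CSLA9, the separate gene of that symbol, gave 27.3, 95.4 and 896 at high temperature in line 252, against 1458, 748 and 557 at optimal temperature. For CSLA9, line 082 gave 44.1, 3.01 and 54.5 in the heat, against 915, 1348 and 652 at optimal temperature. Its high temperature arrays in line 252 spread so widely that the third was inside the optimal range, and the change was -2.40 ± 0.87 there (limma adjusted p = 0.039) and -4.45 ± 0.87 in line 082. Without the third array the change in line 252 was -3.64. That call was lost without high temperature replicate 1 (-1.44) or 2 (-2.12), or optimal temperature replicate 1 (-2.01), 2 (-2.49) or 3 (-2.70). It was also lost with 1 added before the log (-2.65, limma adjusted p = 0.078). With 64 added the change of CSLA9 in line 252 was -1.93. In line 082 its change was -5.43 with 1 added and -3.39 with 64 added. CSLA5 had signals of 124, 141 and 169 at high temperature in line 252, against 405, 462 and 422 at optimal temperature. For CSLA5, line 082 gave 134, 125 and 139.6 in the heat, against 100.03, 184 and 115 at optimal temperature. Line 252 at optimal temperature was the only group above the rest, and the change was -1.48 ± 0.23 in line 252 and 0.04 ± 0.23 in line 082. CSLA7 averaged 279.8 ± 251 at high temperature in line 252, against 381 ± 48.6 at optimal temperature (SD, n = 3 each). In line 082 it averaged 147 ± 26.4 at high temperature and 266 ± 54.4 at optimal temperature. CSLA7 did not pass the test in either line, at -0.82 and -0.79, but was lower in line 252 without the third array (-1.50).

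In the CSLC subfamily, 3 of the 4 genes that passed the filter fell in line 252 and 1 fell in line 082, where the shares of all genes were again 22.0% and 20.3%. CSLC9 was the gene that fell in both. Its signals were 74.5, 155 and 476 at high temperature in line 252, against 712, 1033 and 1155 at optimal temperature. For CSLC9, line 082 gave 193, 224 and 227 in the heat, against 1099, 1429 and 1444 at optimal temperature. The ranges did not overlap, and the changes were -2.29 ± 0.45 in line 252 (-2.95 without the third array) and -2.53 ± 0.45 in line 082. CSLC2 had signals of 289, 271 and 671 at high temperature in line 252, against 863, 1260.2 and 1068 at optimal temperature. For CSLC2, line 082 gave 289, 213 and 281 in the heat, against 405, 439.7 and 443 at optimal temperature. The change was -1.45 ± 0.29 in line 252 (-1.85 without the third array) and -0.70 ± 0.29 in line 082 (limma adjusted p = 0.058).

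CSLC7 moved by similar amounts in both lines, on either side of the size threshold. Its signals were 168, 197 and 290.3 at high temperature in line 252, against 444, 524 and 399 at optimal temperature. For CSLC7, line 082 gave 178, 169 and 139.8 in the heat, against 337, 324 and 278 at optimal temperature. The changes were -1.03 ± 0.22 and -0.89 ± 0.22, and the call in line 252 was lost without high temperature replicate 1 (-0.87) or 2 (-0.98) or optimal temperature replicate 2 (-0.93). CSLC1 ran the other way from most of the family. It averaged 966 ± 98.2 at high temperature in line 252, against 818 ± 90.9 at optimal temperature, and 879 ± 38.9 at high temperature in line 082, against 546 ± 127 at optimal temperature (SD, n = 3 each). The high temperature arrays were above the optimal ones in both lines, and the changes of 0.24 ± 0.18 and 0.70 ± 0.18 were under the size threshold, the second with an adjusted p of 0.0047.

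The CSLD genes, relatives of CESA of which CSLD1 serves root hairs and CSLD4 leaf width in rice, changed one by one. CSLD5 fell in line 252 alone. Its signals were 7.37, 3.73 and 3.78 at high temperature in line 252, against 146, 138 and 419 at optimal temperature. For CSLD5, line 082 gave 24.2, 11.8 and 33.8 in the heat, against 33.3, 17.2 and 27.7 at optimal temperature. Line 252 at optimal temperature was the only group above the array median, and the change was -3.41 ± 0.41 in line 252 (limma adjusted p = 3.2e-05) and -0.12 ± 0.41 in line 082. With 1 or 64 added before the log in place of 16, the change in line 252 was -5.16 or -1.99, and its difference from the change in line 082 was -4.93 or -1.94.

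CSLD2 had signals of 385, 285 and 327 at high temperature in line 252, against 669.6, 543 and 543 at optimal temperature. For CSLD2, line 082 gave 243, 283 and 363 in the heat, against 622, 662 and 913 at optimal temperature. No ranges overlapped, and the changes were -0.79 ± 0.21 in line 252, under the size threshold, and -1.26 ± 0.21 in line 082. CSLD4 had signals of 70.1, 111 and 94.3 at high temperature in line 252, against 236, 238 and 178 at optimal temperature. For CSLD4, line 082 gave 72.6, 59.7 and 56.7 in the heat, against 43.0, 140.1 and 213 at optimal temperature, with the optimal arrays spread around the high ones. The change was -1.12 ± 0.40 in line 252 (limma adjusted p = 0.038) and -0.70 ± 0.40 in line 082. The call in line 252 was lost without high temperature replicate 1 (-0.97), 2 (-1.25) or 3 (-1.14) or optimal temperature replicate 1 (-1.06), 2 (-1.05) or 3 (-1.25). Without optimal temperature replicate 1 of line 082, CSLD4 was lower there too (-1.26). The probe sets of CSLD4 and CSLC7 are of a type whose probes may match other sequences. CSLD1 averaged 20.6 ± 17.6 at high temperature in line 252, against 45.5 ± 34.1 at optimal temperature, and 37.9 ± 17.0 at high temperature in line 082, against 14.4 ± 12.4 at optimal temperature (SD, n = 3 each), and did not pass the test in either line.

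CSLE1 fell in line 252 and did not pass in line 082. Its signals were 114, 48.0 and 32.6 at high temperature in line 252, against 702, 413 and 441 at optimal temperature. For CSLE1, line 082 gave 366, 477 and 309.8 in the heat, against 1047, 569 and 225 at optimal temperature. The ranges were apart in line 252 and overlapped in line 082, with changes of -2.82 ± 0.48 (limma adjusted p = 0.00043) and -0.43 ± 0.48 (limma adjusted p = 0.47). CSLE2 averaged 425 ± 38.4 at high temperature in line 252, against 765 ± 165 at optimal temperature, and 619.9 ± 189 at high temperature in line 082, against 539 ± 126 at optimal temperature (SD, n = 3 each). Its brightest probe set did not pass the test in either line, at -0.81 and 0.18. The second and the third probe sets of CSLE2 gave 0.81 and 0.41 in line 252 and 1.05 and 1.72 in line 082, so the probe sets of this gene disagree.

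The genes of mixed-linkage glucan synthesis went in different directions. CSLF6, the main synthase of this glucan in grasses, had signals of 199.5, 140.5 and 1243 at high temperature in line 252, against 1087, 1631 and 1029 at optimal temperature. For CSLF6, line 082 gave 93.9, 103 and 89.8 in the heat, against 836, 1761 and 1392 at optimal temperature. The third array of line 252 at high temperature was inside the optimal range, and the change was -1.83 ± 0.59 in line 252 (limma adjusted p = 0.022) and -3.53 ± 0.59 in line 082. Without that array the change in line 252 was -2.75. The call in line 252 was lost without high temperature replicate 1 (-1.48) or 2 (-1.25) or optimal temperature replicate 2 (-1.62).

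CSLH1, the other synthase of this glucan named here, was the only one of the 32 genes that rose in line 082. Its signals were 849.9, 809 and 655 at high temperature in line 252, against 1538, 1535 and 1414 at optimal temperature. For CSLH1, line 082 gave 953, 1060.2 and 1355 in the heat, against 607, 284 and 154 at optimal temperature. The arrays of the 2 temperatures were apart in both lines, in opposite directions, with changes of -0.95 ± 0.35 in line 252, under the size threshold, and 1.83 ± 0.35 in line 082 (limma adjusted p = 0.00068). CSLF7, the only gene that rose in line 252, was near the floor of the scale. Its signals were 44.1, 48.4 and 79.6 at high temperature in line 252, against 23.0, 0.465 and 22.4 at optimal temperature. For CSLF7, line 082 gave 57.3, 23.2 and 34.4 in the heat, against 42.3, 25.5 and 24.7 at optimal temperature. The change in line 252 was 1.30 ± 0.41 (limma adjusted p = 0.019), and it did not pass without high temperature replicate 3 (1.10) or optimal temperature replicate 2 (0.89), when arrays were scaled to the hybridisation spikes (1.05), or with 64 added before the log (0.62). With 1 added it was 2.59. CSLF2 averaged 63.7 ± 31.5 at high temperature in line 252, against 58.5 ± 17.1 at optimal temperature, and 41.2 ± 12.8 at high temperature in line 082, against 61.5 ± 42.5 at optimal temperature (SD, n = 3 each), with no call in either line.

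The effect of heat differed between the lines for 13 of the 32 genes, tested as the change in line 252 minus the change in line 082. It was higher for 9 genes, meaning a less negative or more positive change in line 252, where 9.75% of all genes were higher, and lower for 4, where 15.6% of all genes were lower. The median difference of the 32 genes was 0.51, against -0.19 over all genes. Without the filter, 9 of the 34 genes were higher and 4 lower. Of the genes listed next, CESA2 and CSLD5 passed the filter only through the group in which they were highest. The 9 were BC1L9 (4.10 ± 0.51), CESA2 (3.50 ± 0.50), BC1 (2.96 ± 0.69), CESA4 (2.86 ± 0.51), CESA7 (2.71 ± 0.52), CESA9 (2.26 ± 0.66), BC1L6 (2.0 ± 0.40), CESA8 (1.95 ± 0.38) and CESA3 (1.13 ± 0.29). They include all 3 secondary wall CESA genes and 3 of the 4 COBRA-like genes tested. CESA1, CESA5 and CESA6, with differences of 1.16, 0.84 and 0.55, did not pass. Without the third high temperature array of line 252 these were 0.68, -0.09 and -0.05. The second probe set of CESA1 did pass (2.20). The 4 lower genes were CSLD5 (-3.29 ± 0.58), CSLH1 (-2.78 ± 0.49), CSLE1 (-2.39 ± 0.68) and CSLA5 (-1.52 ± 0.32), all from CSL subfamilies. CSLA1 joined them without the third high temperature array of line 252 (-2.78), and CSLC2 did as well (-1.16). The CESA3 difference dropped under the size threshold without that array (0.84), and that of CESA9 missed the test without optimal temperature replicate 2 of line 252 (2.0, adjusted p = 0.056) or replicate 3 of line 082 (2.13, adjusted p = 0.051), or with 1 added before the log (2.85, adjusted p = 0.059). CESA1 and CSLF6 passed without high temperature replicate 2 of line 252 (1.53 and 2.28). CSLE2 passed without high temperature replicate 1 of line 082 (-1.14), optimal temperature replicate 1 of line 252 (-1.14) or optimal temperature replicate 2 (-1.10) or 3 (-1.08) of line 082. The heat changes of the 2 lines plotted against each other put the secondary wall genes and BC1 far left of the line of equal change.

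**Figure D4:**
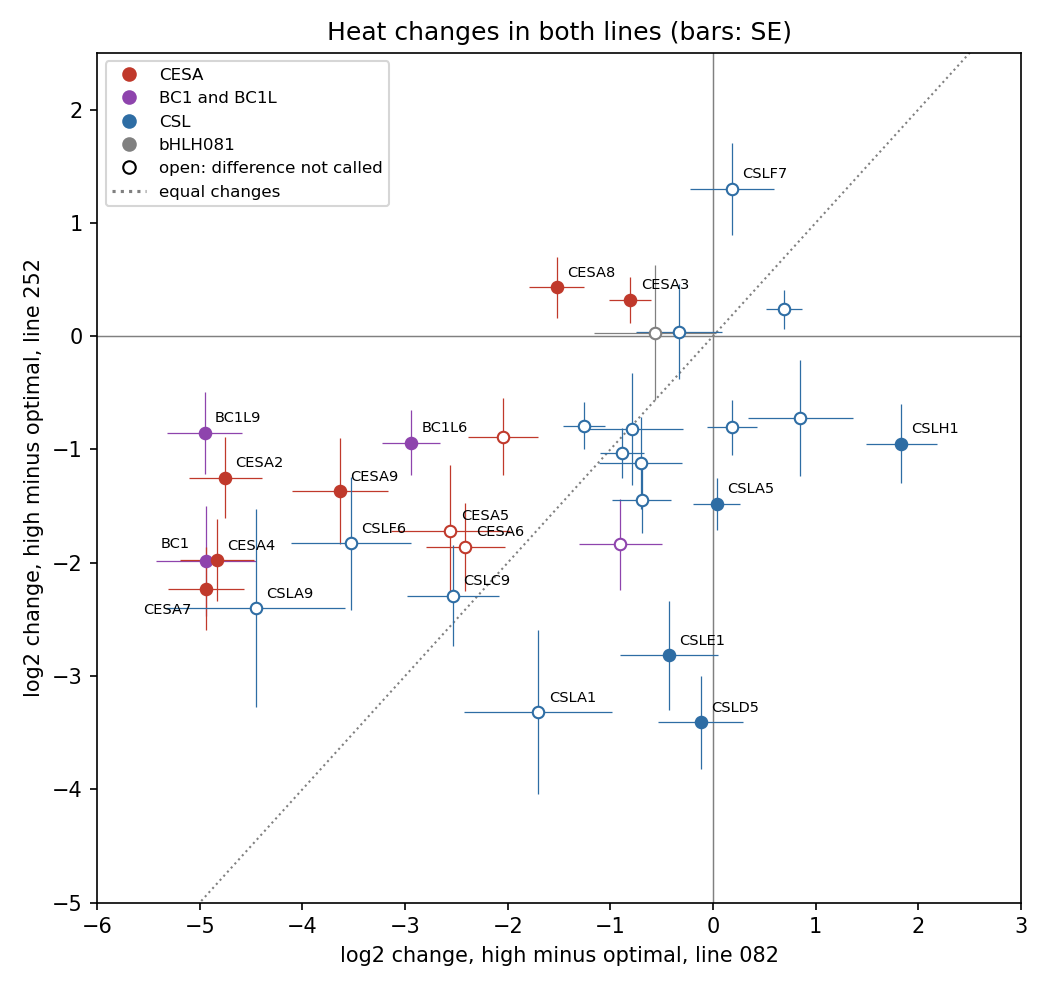
Each point is 1 of the 32 genes, with its log2 change at high temperature in line 252 on the vertical axis and in line 082 on the horizontal axis. Bars are standard errors, filled points passed the test of the difference between the lines, and the dotted line marks equal changes. Points for CESA4 (-1.98 in line 252 and -4.83 in line 082), CESA7 and BC1 lie far to the left, while CSLD5 (-3.41 and -0.12) and CSLE1 lie low and near the middle.

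**Figure D5:**
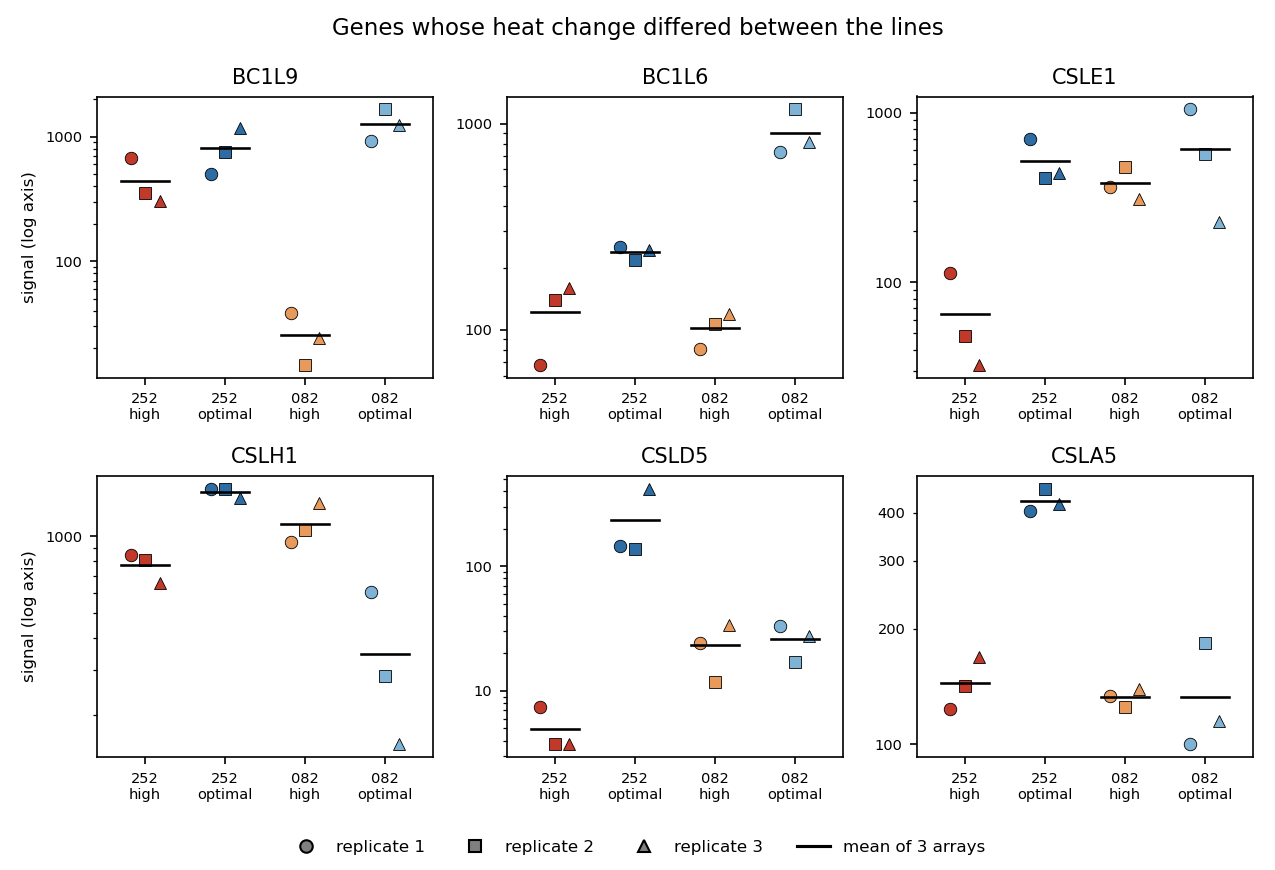
Signal on a log axis for BC1L9, BC1L6, CSLE1, CSLH1, CSLD5 and CSLA5, 6 of the 13 genes whose heat change differed between the lines. Points are arrays with a marker for each replicate number, and bars are means of 3 arrays. BC1L9 is low in line 082 at high temperature alone, CSLE1 is low in line 252 at high temperature alone, and CSLD5 and CSLA5 are high in line 252 at optimal temperature alone.

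At high temperature the lines differed at few genes, in the family and overall. Of the 32 genes, 1 was higher and 1 lower in line 252 than in line 082, where 0.617% of all genes were higher and 0.865% lower. BC1L9 was higher in line 252, by 3.42 ± 0.36 on the log2 scale (limma adjusted p = 0.00013), and its second probe set gave 1.36 without passing. CSLE1 was lower in line 252, with a log2 difference of -2.42 ± 0.48 (limma adjusted p = 0.018). That call was lost without high temperature replicate 2 (-2.31) or 3 (-2.11) of line 252, or replicate 1 (-2.44), 2 (-2.26) or 3 (-2.55) of line 082. CESA8 was higher in line 252 without high temperature replicate 2 of that line (1.14).

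At optimal temperature the lines differed at more genes. In line 252, 5 of the 32 genes were higher and 7 lower than in line 082, where 18.8% of all genes were higher and 10.1% lower. When arrays were scaled to the hybridisation spikes instead, 7 were higher and 6 lower. Without the filter, 5 of the 34 genes were higher and 7 lower. Of the genes listed next, CESA2, CSLD5 and BC1L2 leaned on the group in which they were highest to pass the filter. The 7 lower genes were CESA2 (-3.34 ± 0.36), CESA7 (-2.48 ± 0.37), CESA4 (-2.16 ± 0.36), BC1 (-2.10 ± 0.49), CESA9 (-1.97 ± 0.47), BC1L6 (-1.83 ± 0.29) and CESA8 (-1.19 ± 0.27). This comparison and the difference of heat changes share the optimal temperature arrays of both lines, so they are not independent of each other. The 5 higher genes were CSLD5 (2.42 ± 0.41), CSLH1 (2.26 ± 0.35), CSLA5 (1.62 ± 0.23), BC1L2 (1.40 ± 0.40) and CSLC2 (1.26 ± 0.29). BC1L2 did not pass without optimal temperature replicate 2 of line 082 (1.22, adjusted p = 0.051), or with 1 (1.71) or 64 (0.91) added before the log. CSLA1, at 1.57 ± 0.72, passed without the third high temperature array of line 252 (adjusted p = 0.0014), and CSLD4 without optimal temperature replicate 3 of line 082 (1.27). The median line difference of the 32 genes was 0.35 in the heat (0.03 over all genes) and -0.09 at optimal temperature (0.23 over all genes).

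Other genes of wall building were read from a list of names for cellulose partners, lignin enzymes, and xylan and xyloglucan enzymes. That list was also drawn up with earlier results of these data known. Of 39 genes matched, 31 had a probe set and 28 passed the filter. Most of the 28 were lignin genes (20), with 3 cellulose partners and 5 xylan and xyloglucan genes. At high temperature 8 of the 28 fell and 4 rose in line 252, where 22.0% of all genes fell and 11.3% rose, so these counts were near the background. In line 082, 11 fell and 3 rose, where 20.3% of all genes fell and 18.1% rose. Of the 20 lignin genes, 8 fell in line 252 and 7 in line 082. Of the 3 cellulose partners, 0 fell in line 252 and 2 in line 082, as did 0 and 2 of the 5 xylan and xyloglucan genes. The median changes were -0.51 in line 252 and -0.46 in line 082. The laccase gene LAC10, of a family that polymerises lignin, had its 4 group means in the same order as CESA4. CESA1, CSLA9, CSLC9, CSLD2 and CSLF6 shared that order too. LAC10 signals were 63.2, 151 and 55.5 at high temperature in line 252, against 446, 421 and 764 at optimal temperature. For LAC10, line 082 gave 61.1, 50.6 and 61.8 in the heat, against 4929.6, 1462 and 3019.7 at optimal temperature. The changes were -2.46 ± 0.42 in line 252 and -5.25 ± 0.42 in line 082, and the difference between them was 2.79 ± 0.59 (limma adjusted p = 0.0039).

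Other lignin genes changed in one line or in both. PAL06, of the phenylalanine ammonia-lyase family that opens the lignin pathway, fell in both lines (-2.85 ± 0.64 in line 252 and -4.01 ± 0.64 in line 082). The CAD family genes CAD8C and CAD7 fell in line 252 (-3.15 ± 0.36 and -2.83 ± 0.38) and did not pass in line 082 (-0.17 and -0.46). The coumarate CoA ligase genes 4CL2 and 4CL5 fell in both lines, with changes of -2.35 ± 0.43 and -1.39 ± 0.41 in line 252 and -3.06 ± 0.43 and -2.41 ± 0.41 in line 082, and the difference between the lines did not pass for either (0.71 and 1.02). Those that rose in line 252 were the endoglucanase gene GLU2 (1.20 ± 0.24), CAD3 (1.12 ± 0.17), CAD1 (1.12 ± 0.11) and the xyloglucan endotransglucosylase gene XTH8 (1.02 ± 0.32). In line 082 the laccase genes LAC7 (2.89 ± 0.37) and LAC24 (2.54 ± 0.88) and XTH8 (1.19 ± 0.32) rose. GLU2 signals were 4356, 3014 and 6275 at high temperature in line 252, against 1616, 2032 and 2035 at optimal temperature. For GLU2, line 082 gave 2757, 1593 and 2209 in the heat, against 6189.6, 6378 and 6075 at optimal temperature. GLU2 thus fell in line 082 by 1.54 on the log2 scale while it rose in line 252, and the difference was 2.74 ± 0.34.

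CESA1, CESA2, CESA3 and CESA4 had a second probe set, with the same sign in line 082 as the first. For CESA2 that was not a change that passed the test, at -0.26 (limma adjusted p = 0.54) against -4.75 for the first. The second probe set gave -1.07 in line 252 and -3.67 in line 082 for CESA4, -1.02 and -3.21 for CESA1, and -0.67 and -2.24 for CESA3. For CESA3 the dimmer probe set passed the test in line 082, where the brighter one had missed the size threshold. For CESA1 the dimmer probe set was lower in line 252 at optimal temperature (-2.41), where the brighter one did not pass (-0.34). The probe sets of CESA1, CESA2 and CESA3 thus differed in size and in which comparisons passed the test.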

How the data were processed

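Panicle RNA of 12 samples was hybridised to 1-colour Affymetrix arrays. The deposited intensity values are linear MAS5 signals, per the submitters' processing notes, with a trimmed mean (2% off each end) of about 500 on each array. The members, gene lists and tests used here were chosen with earlier results of these data known. Of 57381 probe sets, 22436 are annotated with 1 gene, 95 with several and 34850 with none. Leaving out 187 control probe sets, 33614 were above their array's median on at least 3 of 12 arrays. Values were taken as log2(signal + 16) and fitted with limma 3.58.1 (R 4.3.3) as 4 group means over all 12 arrays, with an intensity trend and 8 residual degrees of freedom. A call needed a Benjamini-Hochberg adjusted p under 0.05 over all kept probe sets and a log2 change of at least 1. Fold changes of mean signals were computed from the deposited values. Each gene was taken by its brightest probe set, over 16541 genes for the background. Every CESA and COBRA-like gene is named with all arrays, as is every CSL gene called in a heat comparison or their difference, and up to 4 wall partners per direction with the largest called changes. No named regulator or callose synthase gene was matched in the partner list. Gene names come from RefSeq, assembly ASM3414082v1, and no coordinates are given since the array's build is not stated. Replicate arrays correlated at 0.948 to 0.977, and no pair of arrays was identical. Replicate numbers did not pair the samples, with correlations of deviations from -0.203 to 0.126 over 18 pairs of arrays. Other normalizations, pseudocounts, filters, models, probe set rules and each array left out were tried for the genes of the naming rule, and not for the wall partners. The fit was tested on simulated data.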

Additional observations from a re-analysis of the deposited data

Results flagged for a closer look

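The effect of heat differed between the lines at 13 genes, by the limma test of the change in line 252 minus the change in line 082 on the log2 scale. The difference was positive for CESA4 (2.86), CESA7 (2.71), CESA9 (2.26), CESA2 (3.5), CESA8 (1.95) and CESA3 (1.13), and for the COBRA-like genes BC1 (2.96), BC1L6 (2.0) and BC1L9 (4.1). It was negative for CSLA5 (-1.52), CSLD5 (-3.29), CSLE1 (-2.39) and CSLH1 (-2.78). The share of all genes tested that passed was 9.75% in the positive and 15.6% in the negative direction. CESA2 and CSLD5 passed the filter only through the group in which they were highest.

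CESA4, CESA7 and BC1 fell in both lines, and the difference came with higher optimal temperature signals in line 082, as it did for CESA9 and CESA2. The line 252 calls of CESA9 and CESA2 were lost under several settings, and the second probe set of CESA2 gave 0.06 there. The grain list and the Gapdh and actin 3′ to 5′ ratios also set line 082 at optimal temperature apart, and their part was not tested. The Dap ratio was 11.2 to 13.2 on high temperature arrays and 1.58 to 1.98 on optimal temperature arrays. CESA8 and CESA3 had changes of 0.43 and 0.32 in line 252 (0.15 and 0.03 without high temperature replicate 3 of that line), and -1.52 and -0.80 in line 082. BC1L9 differed at high temperature rather than at optimal temperature, where its line difference was -0.68 (limma adjusted p = 0.15). CSLE1 had a line difference of -0.03 at optimal temperature, while CSLD5, CSLA5 and CSLH1 had 2.42, 1.62 and 2.26 there.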

How the results depend on the processing

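Of 62 calls of single genes over the 5 comparisons, 44 were made under every alternative in which the gene was tested. With a filter at the 75th percentile, 20 of the genes were tested, and 11 fell and 0 rose in line 252, 2 were lower in the difference of heat changes and 2 were higher in line 252 at optimal temperature. The count that rose in line 252 was also 0 when scaled to the hybridisation spikes or with 64 added before the log. In line 082, 2 rose with no size threshold or with the second probe set of each gene. With second probe sets, 0 were higher in line 252 at high temperature, and CESA2 in line 252 changed sign (0.0585). Leaving out 1 array at a time, 12 to 19 genes fell and 0 to 1 rose in line 252, and 14 to 16 fell and 1 rose in line 082. The difference of heat changes then had 7 to 11 higher and 3 to 6 lower, the lines at high temperature 1 to 2 higher and 0 to 1 lower, and at optimal temperature 4 to 6 higher and 6 to 7 lower. Without the third high temperature array of line 252, 19 genes fell there, 16 of them in both fits. With the replicate number as a block, 18 fell and 1 rose in line 252, 15 fell and 1 rose in line 082, 9 were higher and 4 lower in the difference, 1 and 1 at high temperature and 5 and 7 at optimal temperature, as without it.

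Scaling moved the count that fell in line 252 to 13 with quantile normalization, 12 when centred on the 75th percentile and 25 when scaled to the spikes, against 15, 15 and 17 in line 082. The line 252 calls lost were CESA9, CSLA5, CSLA9, CSLC7 and CSLD4 with quantile normalization, and CESA2, CESA5, CESA9, CSLA9, CSLC7 and CSLD4 on the 75th percentile. The median log2 change of all kept probe sets was -0.20 in line 252 and -0.15 in line 082 as reported, 0.07 and 0.13 after quantile normalization, 0.10 and 0.04 centred on the 75th percentile and -0.58 and -0.25 with the spikes, and no called member changed sign under these. The fit of the compared groups alone was not run for the difference of heat changes. No detection calls were used, so how far a signal under the array median lies above background is unknown. This limits CESA2, CESA9, CSLD5 and BC1L2 at high temperature in both lines, and BC1 and BC1L9 at high temperature in line 082. At optimal temperature it limits CESA2 and CSLF7 in line 252, and CSLD5, BC1L2 and CSLF7 in line 082.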
